A study of Mus musculus with 7 samples.

Results

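Sarcomeric myosin heavy and light chain transcripts were examined in myoblasts, whose fusion builds skeletal muscle fibres, from mice with and without Hmga2. The genes were taken by name, as 6 heavy chains (Myh1, Myh2, Myh3, Myh4, Myh7 and Myh8) and 4 light chains (Myl1, Myl2, Myl4 and Mylpf) of skeletal muscle. The platform table paired them with 16 of the 45101 probe sets, of which 14 belonged to 1 gene and 2 to both Myh7 and Myh6. All 10 genes were measured, out of 18193 genes in all. The wild type group had 3 samples from female C57BL/6 mice, and the Hmga2 KO group had 4 samples from C57BL/6 mice that lack Hmga2 (Hmga2 -/-), where replicates 1 and 3 came from males and 2 and 4 from females. No sample was treated, and the sources used here do not give the age of the mice or the culture conditions. The comparison asks which transcripts depend on Hmga2, an architectural protein of chromatin with AT-hook motifs.

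Muscle myosin is the motor of the sarcomere. Each molecule joins a pair of heavy chains, which hold the motor domain and the tail that packs into thick filaments, with essential and regulatory light chains that wrap the neck of each head. The heavy chain isoforms follow each other in development, with the embryonic chain (Myh3) and the perinatal chain (Myh8) before the adult fast chains (Myh1, Myh2 and Myh4), whereas Myh7 is the chain of slow fibres and of the heart. Cultured myoblasts that leave the cell cycle and fuse switch on these genes as part of terminal differentiation.

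Every array had a median intensity of 150. Probe sets of 3 Y-linked genes read 33.9 to 58.2 in the 5 females, whose cells have no Y chromosome, and this range served as a measure of background. Hmga2 itself read 9998 to 12800 in wild type and 85.7 to 104 in Hmga2 KO (log2 difference -6.90, SE 0.115, adjusted p = 1.00e-08, limma). Of the 10 myoblast markers, 9 read at least 859 in every sample, among them Myod1 (14293 to 15766) and Pax7 (5188 to 6765), and Msc read 71.7 to 81.4. Endothelial markers read 45.9 to 111 and leukocyte markers 46.6 to 172. Fibroblast markers were mixed. Lum and Dpt, at 38.9 to 61.0, lay near background, and Dcn, Thy1 and Mfap5 read 55.7 to 147. Others were bright, among them Col3a1 (6483 to 9330), Mgp (2495 to 5167) and Islr (799 to 2385). Of the smooth muscle and pericyte markers, Acta2 read 11058 to 15908 and Rgs5 949 to 11001, while Cnn1, Myh11 and Kcnj8 read 34.3 to 124. Wild type replicate 2 had the highest 3' to 5' control ratios, which rise as RNA degrades. They were 1.94 for Actb and 1.52 for Gapdh there, while the other 6 samples had 1.61 to 1.74 and 1.22 to 1.36.

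All 10 myosin genes had a lower mean in Hmga2 KO than in wild type, with log2 differences from -1.35 to -0.12. None of them passed the test over all genes. All wild type samples were female, and in females alone the median difference of the 10 genes was -0.20, against -0.05 for all genes. Myh1 and Myh4 then lay at 0.02 and 0.06. Myh8 stood furthest down and was the one heavy chain whose groups did not overlap. Its ratio to each of the other 9 myosin genes was also lower in every Hmga2 KO sample than in every wild type sample. Each gene was taken there by its brightest probe set only. This set of ratios was drawn up after Myh8 was seen, with no test, and all 9 share the Myh8 values. In 7 of the other myosin genes the female Hmga2 KO replicate 2 lay inside the wild type range. In these bulk samples, fewer differentiated cells and less myosin RNA per cell cannot be told apart.

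The developmental heavy chains came first. Myh3, the embryonic chain, had intensities of 10316, 13463 and 11217 in wild type replicates 1 to 3 and of 4629, 10946, 7886 and 7917 in Hmga2 KO replicates 1 to 4. The groups overlapped, since Hmga2 KO replicate 2 lay above wild type replicate 1. The means were 11665 ± 1621 (SD, n = 3) and 7845 ± 2580 (SD, n = 4), a log2 difference of -0.63 (SE 0.251, 95% interval -1.20 to -0.06, adjusted p = 0.340, limma).

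Myh8, the perinatal chain, had 1227, 1983 and 1647 in wild type and 397, 951, 572 and 697 in Hmga2 KO. Every Hmga2 KO sample lay below every wild type sample, and the female Hmga2 KO samples, at 951 and 697, lay above the males. The Hmga2 KO mean of 654 ± 233 (SD, n = 4) was 40.4% of the wild type mean of 1619 ± 379 (SD, n = 3). The log2 difference was -1.35 (SE 0.276, 95% interval -1.97 to -0.72, adjusted p = 0.212, limma). It was the 12th lowest of the 18193 genes, yet it did not pass the test.

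Myh7, the slow and cardiac chain, had 2323, 3885 and 2255 in wild type and 974, 2439, 1552 and 1716 in Hmga2 KO. Wild type replicate 2 was the high sample, and the groups overlapped only through Hmga2 KO replicate 2. The log2 difference was -0.78 (SE 0.299, 95% interval -1.46 to -0.11, adjusted p = 0.333, limma). Of 8 cardiomyocyte markers, Nppa, Myl7 and Nkx2-5 read 46.8 to 63.5 in all samples, near background. Nppb, Myh6, Tnni3 and Ryr2 read 52.7 to 128, and Gata4 read 496 to 694. Tnni3 was higher in every Hmga2 KO sample than in any wild type sample (log2 difference 0.51, adjusted p = 0.226, limma). Nppa was lower in every Hmga2 KO sample (log2 difference -0.14, adjusted p = 0.474, limma), as were 9.29% of all genes. The part of these markers in the Myh7 values was not tested.

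The adult fast chains showed the smallest differences among the heavy chains when each gene was taken by its brightest probe set. The ranking does not hold for the second, similarly dim probe set of Myh4, which differed by -0.82. Myh1, the chain of type IIx fibres, had 4729, 7945 and 5692 in wild type and 2191, 6793, 4469 and 5395 in Hmga2 KO on its brightest probe set. Hmga2 KO replicates 2 and 4 lay within the wild type range, and the log2 difference was -0.46 (SE 0.349, adjusted p = 0.580, limma), with a 95% interval that included 0 and reached up to 0.33. Myh2, the chain of type IIa fibres, was dim, with 120, 157 and 140 in wild type and 74.9, 156, 110 and 119 in Hmga2 KO. Its log2 difference was -0.31 (95% interval -0.80 to 0.18, adjusted p = 0.549). Myh4, the chain of the fastest type IIb fibres, was dim as well, with 111, 115 and 128 in wild type and 96.1, 146, 94.6 and 103 in Hmga2 KO. Here Hmga2 KO replicate 2 was the highest of the 7 samples, and the log2 difference was -0.12 (95% interval -0.48 to 0.23, adjusted p = 0.756).

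The light chains lay closer together. Myl1, the essential light chain of fast fibres, had 11677, 13182 and 12786 in wild type and 5825, 12018, 8590 and 10289 in Hmga2 KO. The log2 difference was -0.50 (SE 0.216, 95% interval -0.99 to -0.01, adjusted p = 0.372, limma). Myl4, the essential light chain of embryonic muscle and of the atria, had 10054, 14081 and 12443 in wild type and 5762, 12033, 8166 and 8956 in Hmga2 KO. Its log2 difference was -0.52 (SE 0.227, 95% interval -1.03 to -0.004, adjusted p = 0.374). In both genes Hmga2 KO replicate 2 lay inside the wild type range and the other Hmga2 KO samples below it.

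Mylpf, the regulatory light chain of fast fibres, had 14392, 18536 and 16319 in wild type and 7802, 16282, 11901 and 12899 in Hmga2 KO. Its log2 difference was -0.47 (SE 0.221, 95% interval -0.97 to 0.03, adjusted p = 0.401, limma). Myl2, the regulatory light chain of slow fibres and the ventricle, was dim, with 123, 123 and 177 in wild type and 110, 112, 106 and 94.98 in Hmga2 KO. Its groups did not overlap, although the highest Hmga2 KO sample and the lowest wild type sample were only 112 and 123, and the log2 difference was -0.39 (SE 0.142, adjusted p = 0.315).

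**Figure D1:**
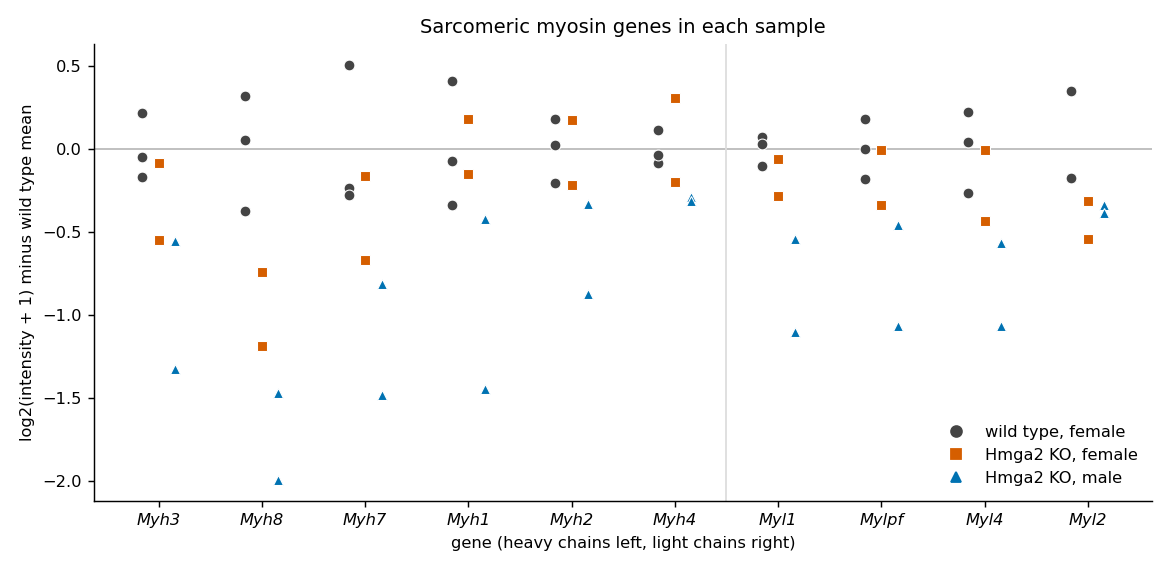
Each point is 1 sample, and the vertical axis gives log2(intensity + 1) minus the wild type mean of the same gene (3 wild type, 2 female and 2 male Hmga2 KO samples). Myh8 lies lower in all 4 Hmga2 KO samples than in any wild type sample, at -0.74 to -1.996 from the wild type mean. The other bright genes overlap through Hmga2 KO replicate 2, and Myh1 also through replicate 4.

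Counted together, 0 of the 10 genes passed an adjusted p of 0.05 by limma, against 0.0275% of all genes (5 of 18193). At an unadjusted p under 0.05, 6 of 10 were lower in Hmga2 KO (Myh3, Myh7, Myh8, Myl1, Myl2 and Myl4) and 0 higher, against 10.3% of all genes lower at that p. The median difference of the 10 genes was -0.48, against -0.07 for all genes. The 10 genes share samples and vary together, so they are not independent of each other in these counts. Every Hmga2 KO sample lay below every wild type sample in 2 of 10, Myh8 and Myl2, against 9.29% of all genes. Without Hmga2 KO replicate 2, this count was 9 of 10 (18.7% of all genes), and without wild type replicate 1 it was 6 of 10 (22.9% of all genes).

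**Figure D2:**
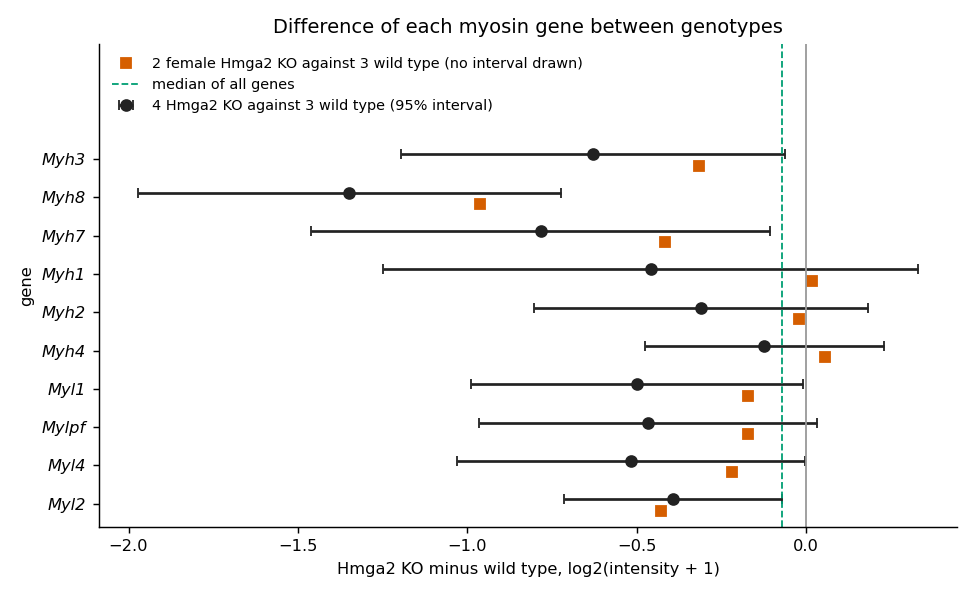
Circles give the difference between 4 Hmga2 KO and 3 wild type samples on the log2(intensity + 1) scale with its 95% interval from limma, and squares give the same difference for the 2 female Hmga2 KO samples against the wild type females. All circles lie at or left of -0.12, and in females alone Myh1 and Myh4 lie at 0.02 and 0.06.

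The order of the samples was similar among the bright myosin genes. Hmga2 KO replicate 1, a male, was the lowest sample in 8 of the 10 genes, against 21.3% of all genes, and wild type replicate 2 the highest in 8 of 10, against 23.0% of all genes. Hmga2 KO replicates 1 and 3 lay below the whole wild type range in 10 of 10 genes, replicate 4 in 9 and replicate 2 in 2, where 38.9%, 42.5%, 38.1% and 24.6% of all genes lay below it in replicates 1, 3, 4 and 2. Myl2 did not follow this order, with its highest value in wild type replicate 3 and its lowest in Hmga2 KO replicate 4. Over the 7 bright genes, the mean centred log2 value was 0.15, 0.66 and 0.345 in wild type replicates 1 to 3. In Hmga2 KO replicates 1 to 4 it was -0.97, 0.26, -0.31 and -0.13. The high wild type replicate 2 is also the sample with the highest 3' to 5' ratios, whose part in these values was not tested, and without it the median difference of the 10 genes was -0.43. Without Hmga2 KO replicate 1 the median was -0.32.

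Sex moved with the myosin level inside the Hmga2 KO group. The males had the lower mean in 9 of 10 genes, and the median difference of males from females was -0.61, against -0.04 for all genes. None of the 10 passed between male and female Hmga2 KO samples by limma, against 0.0385% of all genes (7 of 18193). At an unadjusted p under 0.05, 8 of 10 were lower in males, against 3.64% of all genes. Male minus female differences were -0.95 for Myh1 (SE 0.343, adjusted p = 0.671), -0.77 for Myh8 (SE 0.266, adjusted p = 0.645), -0.65 for Myl1 (SE 0.191, adjusted p = 0.559) and 0.07 for Myl2 (SE 0.195, adjusted p = 0.998). With 2 samples of each sex, sex cannot be told apart from the other differences between these 4 samples.

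Since all wild type samples were female, the genotypes were compared in females as well. The median difference of the 10 genes was then -0.20, against -0.05 for all genes. By limma 0 of 10 passed, against 0.0275% of all genes, and 1 of 10 (Myh8) was lower at an unadjusted p under 0.05, against 4.62% of all genes. The female difference was -0.96 for Myh8 (adjusted p = 0.474), -0.43 for Myl2, -0.42 for Myh7 and -0.32 for Myh3. It was between -0.22 and -0.17 for Myl1, Myl4 and Mylpf, -0.02 for Myh2, 0.02 for Myh1 and 0.06 for Myh4. Every female Hmga2 KO sample lay below every wild type sample in 2 of 10 genes, Myh8 and Myl2, against 16.1% of all genes.

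Whether isoforms differed in how far they moved was tested on the log2 ratio of 2 myosin genes within each sample, for 7 pairs. For Myh8 minus Myh3, the perinatal over the embryonic chain, the ratio was -3.07, -2.76 and -2.77 in wild type and -3.54, -3.52, -3.78 and -3.50 in Hmga2 KO. The groups were apart by more than the spread inside either, with SDs of 0.18 and 0.13. The ratio differed by -0.72 between genotypes (exact two-sided permutation p = 0.0286 over 35 splits, the smallest they allow, and 0.1 after adjustment over the 7 pairs). The 7 pairs together cannot reach an adjusted p of 0.05 unless at least 4 of them give that smallest p. Of all other genes taken over Myh3, 0.132% (24 of 18192) had every Hmga2 KO sample below every wild type sample. Myh3 itself differed by -0.63, against a median of -0.07 for all genes, so the lower Myh3 values also enter this share.

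Myh2 over Myh3 went the other way, with -6.42, -6.42 and -6.31 in wild type and -5.93, -6.12, -6.16 and -6.05 in Hmga2 KO. Its ratio differed by 0.32 (exact permutation p = 0.0286, 0.1 adjusted), and Myh4 over Myh3 differed by 0.50 (exact permutation p = 0.0571, 0.133 adjusted). Every Hmga2 KO sample lay above every wild type sample in these 2 pairs, as it did for 21.0% of all genes over Myh3. With the mean of its probe sets, Myh4 over Myh3 differed by 0.16 (exact permutation, 0.733 adjusted), and the second Myh4 probe set, with -0.82 against -0.63 for Myh3, lay in the other direction. Myh2 and Myh4 are dim, and fold changes can be understated near background, which was not tested here. The remaining ratios were less far apart than their spread, at -0.16 for Myh7 over Myh3 and 0.17 for Myh1 over Myh3 (exact permutation p = 0.343 for both). They differed by -0.02 for Myl4 over Myl1 (exact permutation p = 0.914) and by 0.07 for Myl2 over Mylpf (exact permutation p = 0.771).

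After these values were seen, Myh8 was set against each of the other 9 myosin genes, as a description with no test. In 9 of 9 ratios every Hmga2 KO sample lay below every wild type sample, with differences from -0.57 (over Myh7) to -1.23 (over Myh4). Of the other genes, Myh3 had 3 of 9 ratios with every Hmga2 KO sample lower, and Myh2 and Myh4 each had 5 of 9 with every Hmga2 KO sample higher. The ratios with Myh4 rest on its first probe set, which differed by -0.12. The similarly dim second one, which was not used in these ratios, differed by -0.82. Hmga2 KO replicate 2, which lay inside the wild type range for Myh3, Myh7 and the bright light chains, had 951 for Myh8, where the lowest wild type sample had 1227.

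**Figure D3:**
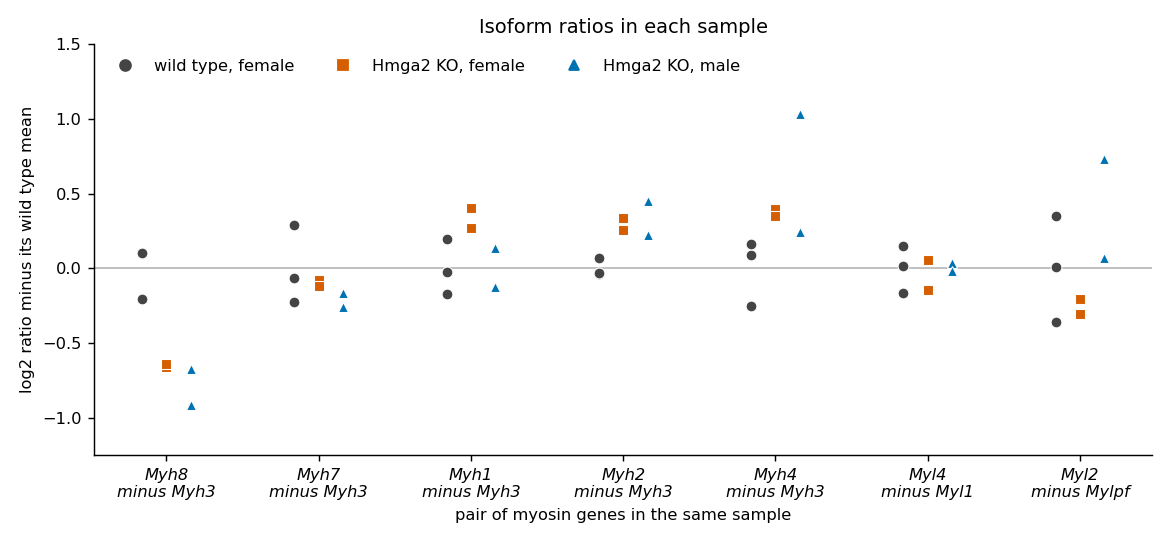
Each point is the log2 ratio of 2 myosin genes in 1 sample minus the wild type mean of that ratio, for 7 pairs and 7 samples. The 4 Hmga2 KO samples lie below all wild type samples for Myh8 over Myh3, by -0.72 on average, and overlap them for Myh7 over Myh3.

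The promoters of the heavy chains are shown because 5 of these genes lie side by side on chromosome 11, in the order Myh3, Myh2, Myh1, Myh4 and Myh8, with Myh13 after them, and differed in the size of their changes. Myh7 lies on chromosome 14, next to Myh6. The windows are RefSeq promoters of GRCm38.p6, from 250 bases before to 50 bases after the start site, all on the + strand for the 4 genes shown. All 10 myosin genes were matched. They are chr11:67078050-67078349 for Myh3, chr11:67276874-67277173 for Myh8, chr11:67199852-67200151 for Myh1 and chr11:67237562-67237861 for Myh4. Capitals mark matches, on either strand, to the E-box CANNTG bound by MyoD-family factors, the TATA box TATAAA, the MCAT element CATTCC, and the MEF2 and CArG sites.
Myh3: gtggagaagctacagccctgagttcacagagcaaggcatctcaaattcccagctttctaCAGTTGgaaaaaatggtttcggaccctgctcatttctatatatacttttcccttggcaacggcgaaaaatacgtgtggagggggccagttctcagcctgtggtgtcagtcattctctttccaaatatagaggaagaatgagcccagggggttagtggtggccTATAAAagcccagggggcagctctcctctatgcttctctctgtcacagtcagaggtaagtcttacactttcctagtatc
Myh8: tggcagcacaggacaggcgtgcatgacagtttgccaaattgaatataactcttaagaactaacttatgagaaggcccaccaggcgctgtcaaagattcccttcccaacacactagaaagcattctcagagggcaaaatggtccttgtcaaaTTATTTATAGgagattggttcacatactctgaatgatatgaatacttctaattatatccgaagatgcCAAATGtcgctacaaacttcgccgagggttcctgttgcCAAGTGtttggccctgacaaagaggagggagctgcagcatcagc
Myh1: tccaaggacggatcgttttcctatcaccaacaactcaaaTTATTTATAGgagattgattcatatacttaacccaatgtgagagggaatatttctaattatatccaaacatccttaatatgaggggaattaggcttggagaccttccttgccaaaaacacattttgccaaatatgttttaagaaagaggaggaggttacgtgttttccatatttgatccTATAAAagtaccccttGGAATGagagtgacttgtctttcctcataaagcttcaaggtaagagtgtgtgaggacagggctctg
Myh4: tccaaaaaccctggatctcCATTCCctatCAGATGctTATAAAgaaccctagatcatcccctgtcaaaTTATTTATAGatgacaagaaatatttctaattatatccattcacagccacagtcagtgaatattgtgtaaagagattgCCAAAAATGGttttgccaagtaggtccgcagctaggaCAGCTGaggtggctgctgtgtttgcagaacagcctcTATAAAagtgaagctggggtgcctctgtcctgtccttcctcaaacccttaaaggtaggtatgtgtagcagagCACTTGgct

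Myh1, Myh4 and Myh8 share the MEF2 match TTATTTATAG, which starts at -211, -182 and -99 from the start site and overlaps a TATAAA match on the other strand. A MEF2 match was found in 3 of 10 myosin genes and in 3.19% of 32851 promoters of the same length. The stretch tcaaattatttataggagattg, of 22 bases around it, is common to Myh1 and Myh8, and the stretch aaatatttctaattatatcca, of 21 bases, to Myh2 and Myh4. Myh3 shares no stretch over 11 bases with another myosin promoter. A TATAAA with its first base 40 to 20 bases before the start site was present in Myh1, Myh3 and Myh4, and in 1.99% of all promoters. E-box matches were found in 7 of 10 genes and in 72.3% of promoters, MCAT matches in 4 of 10 and in 14.7%, and a CArG match in 1 of 10 (Myh4) and in 1.63%. The share of A and T was 55.3% in Myh8 and 52.0% in Myh3, and 38.3% to 62.0% over the 12 windows of the 10 genes, against a median of 47.3% over all promoters. These matches are letters in these windows only.

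The other probe sets of the same genes were then compared. Over all 34945 probe sets of 1 gene, 0 of the 14 myosin probe sets passed by limma, against 0.0200% of all, and 2 of 14 had groups that did not overlap, with Hmga2 KO lower, against 8.40% of all. Myh1 had 3 probe sets. The brightest, of the _x_at kind, and the next, of the _a_at kind, differed alike, by -0.46 and -0.45, and the latter read 4209, 7163 and 5070 in wild type and 1919, 5989, 4113 and 4964 in Hmga2 KO. The third, of the plain _at kind, read 72.1 to 89.0 in all samples (difference -0.05). On Affymetrix arrays the ending _x_at marks probe sets with probes that can also bind other transcripts. The adult fast chains are close in sequence, and whether the bright Myh1 values hold signal of other chains was not tested. Myh2 and Myh4 read 60.8 to 173 on their own probe sets, Myh8 397 to 1983 and Myh3 4629 to 13463.

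The 2 probe sets of Myh4 did not give the same difference. The second had 129, 138 and 173 in wild type and 64.3, 149, 77.9 and 60.8 in Hmga2 KO, a difference of -0.82 (SE 0.277, adjusted p = 0.341, limma), against -0.12 on the first. Both are dim, and the value given for Myh4 above is that of the first. The dim second probe set of Myl4 read 142 to 461 in wild type and 79.5 to 272 in Hmga2 KO (difference -0.78). The 2 probe sets shared by Myh7 and Myh6 were not assigned to either gene. The dimmer one read 89.7 to 93.0 in wild type and 62.6 to 82.1 in Hmga2 KO. Its groups did not overlap, as in 8.40% of the probe sets of 1 gene. The brighter one had 876, 1409 and 746 in wild type and 350, 796, 425 and 509 in Hmga2 KO, the same order of samples as the probe set of Myh7 alone, except that wild type replicate 1 and Hmga2 KO replicate 2 changed places.

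**Figure D4:**
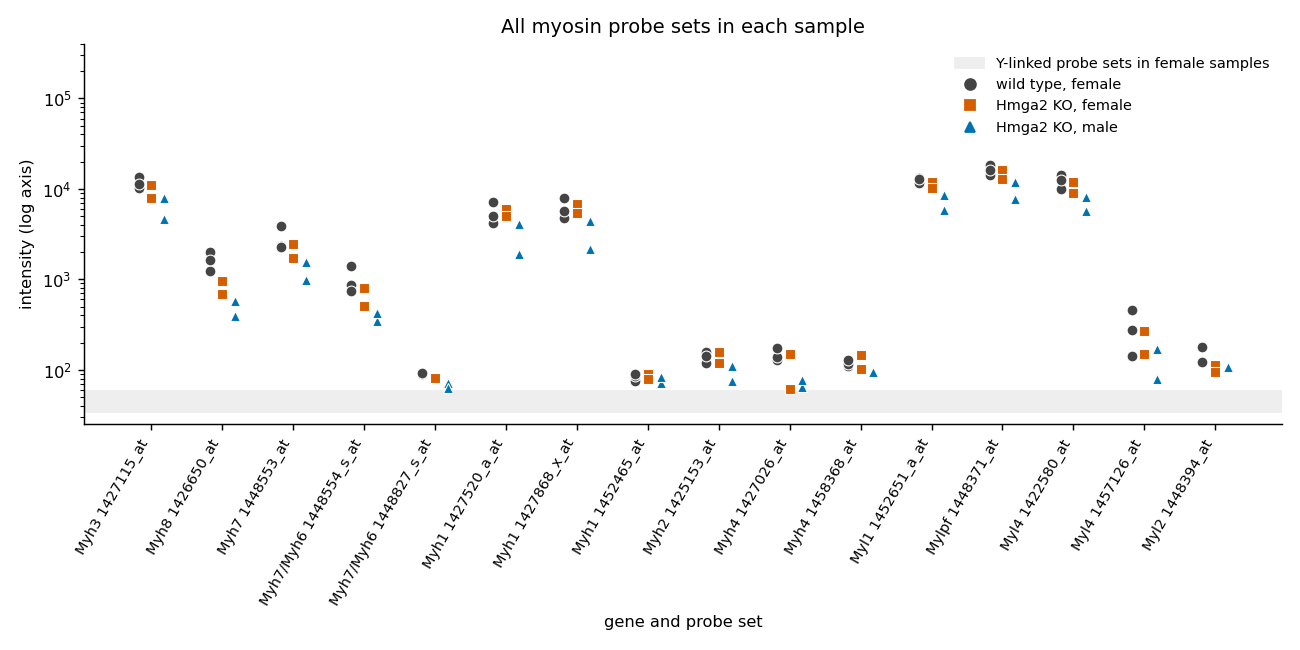
Intensity of each of the 16 myosin probe sets in every sample on a log axis, with 3 wild type, 2 female and 2 male Hmga2 KO points each. The grey band is the 33.9 to 58.2 that Y-linked probe sets gave in female samples, and the dim probe sets of Myh1, Myh2, Myh4 and Myl2 lie just above it.

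Partners of the thick filament mostly had lower means in Hmga2 KO as well. Of 10 measured, 9 lay below the median of all genes, with a list median of -0.77, and 0 passed by limma. At an unadjusted p under 0.05, 6 were lower, against 10.3% of all genes. With sex in the model the list median was -0.36, and it was -0.19 for the thin filament and the fusion and differentiation lists. Tcap, the titin cap protein, averaged 9.41 (log2) across wild type samples against 8.42 without Hmga2 (adjusted p = 0.270), and titin itself (Ttn) 11.33 against 10.69 (adjusted p = 0.298). The groups did not overlap in these 2 of the 10 genes, with Hmga2 KO lower, against 9.29% of all genes. Mybph, a myosin binding protein, had 11.88 and 10.80, and Myom2, an M-band protein, 11.24 and 10.18. Among 7 genes of myosin folding and turnover, 0 passed and 1 was lower at that unadjusted p, near the share of all genes. The lower gene was Unc45b, the chaperone of muscle myosin, with 10.29 and 8.97 (adjusted p = 0.312, limma). Hsp90aa1, its general partner, differed by -0.04.

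Of 6 other striated muscle myosins measured, which read 46.9 to 642, 0 passed. At an unadjusted p under 0.05, 1 was lower, against 10.3% of all genes. The lower gene was Myl3, the slow essential light chain, with mean log2 values of 7.52 and 6.89 (adjusted p = 0.316, limma). Myh7b differed by -0.71. Myosins of non-muscle cells and smooth muscle differed less, with 0 of 9 at an unadjusted p under 0.05 in either direction by limma, 0 past the adjusted threshold and a median of 0.03. Myh9, the main non-muscle heavy chain, differed by 0.05 and Myh10 by 0.13. Of 14 thin filament genes 12 lay below the median of all genes, with a list median of -0.41, and 0 passed. At the same unadjusted p 2 were lower, near the share of all genes. These were Lmod3 (10.59 and 9.64) and Tnnt3 (13.08 and 12.46).

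Regulators of myosin genes ranged from dim to very bright. Myod1 had mean log2 values of 13.91 ± 0.05 (SD, n = 3) and 13.85 ± 0.05 (SD, n = 4), and Myog 14.23 ± 0.13 and 14.06 ± 0.22. Of 17 regulators, 0 passed by limma, with 3 lower and 1 higher at an unadjusted p under 0.05, against 10.3% and 2.99% of all genes. Those lower were Myf6, a late factor of the MyoD family, with 9.11 and 7.84 (adjusted p = 0.294), Vgll2, a cofactor of TEAD factors, with 7.54 and 7.03, and Sox6, a repressor of slow fibre genes, with 7.98 and 7.58. The higher one was Eya2, a coactivator of homeodomain factors, with 7.81 and 9.55 (adjusted p = 0.0879).

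Markers of cell state were set beside these values, and their part in the myosin differences was not tested. Of 8 genes listed for fusion and early differentiation, 7 lay below the median of all genes, with a list median of -0.30, and 0 passed. At an unadjusted p under 0.05, 2 were lower, against 10.3% of all genes. These were Ckm, muscle creatine kinase, and Cav3, the caveolin of the muscle membrane. The fusion proteins Mymk and Mymx differed by -0.57 and -0.56 (adjusted p = 0.385 and 0.420). All 9 proliferation genes lay below the median of all genes, with a list median of -0.22, and 0 passed. At that unadjusted p 2 were lower (Aurkb and Mcm5), against the same 10.3% of all genes. Of 14 fibroblast and fibro-adipogenic progenitor markers 11 lay above the median, 0 passed, and 4 were higher at that p (Mgp, Smoc2, Islr and Dcn), as were 2.99% of all genes. The summed intensity of these 14 was 16892 to 18158 in wild type and 19196 to 23081 in Hmga2 KO, with no overlap. A linear sum weighs bright genes most, and Mgp averaged 2750 with Hmga2 present and 4581 without it. The 3 genes below the median, Col1a1, Fbln1 and Thy1, differed by -0.71, -0.21 and -0.11. Whether the share of fibroblasts differed was not tested. Of 10 myoblast markers 5 lay below and 5 above the median, with sums of 66061 to 70357 and 59557 to 69748. The sums were 18134 to 27280 and 19527 to 28148 for smooth muscle and pericyte markers. They were 1028 to 1153 and 996 to 1223 for cardiomyocyte markers and 649 to 743 and 657 to 707 for leukocyte markers. Endothelial sums, at 513 to 565 in wild type and 486 to 508 in Hmga2 KO, did not overlap either. The endothelial markers each read only 45.9 to 111.

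The genes most like the mean profile of the 7 bright myosin genes over the 7 samples were ranked by Pearson correlation among 10909 genes outside the dimmest 40%. The first 8 were Unc45b (0.998), Tm6sf1 (0.998), Actn2, the Z-disc protein (0.997), Myom2 (0.996), Nol3 (0.996), Vma21 (0.996), Mymk, the fusion protein myomaker (0.994), and Mybph (0.993). The points share 7 arrays, and 615 genes correlated at 0.9 or more. In all 8 genes Hmga2 KO replicate 1 was lowest and wild type replicate 2 highest. Their genotype differences ran from -0.36 for Vma21 to -1.32 for Unc45b, and none passed (adjusted p = 0.298 to 0.389, limma).

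**Figure D5:**
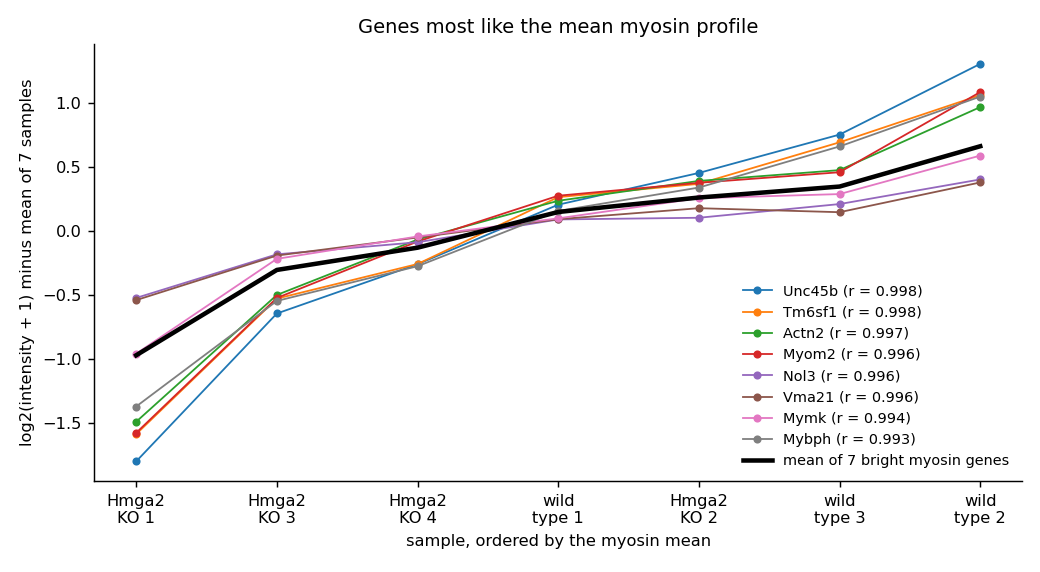
The thick line is the mean of the 7 bright myosin genes and the thin lines are the 8 genes with the highest Pearson correlation to it, as log2(intensity + 1) minus each gene's mean over the 7 samples, with samples ordered by the myosin mean. The order runs from Hmga2 KO replicate 1 (-0.97) to wild type replicate 2 (0.66), and Hmga2 KO replicate 2 (0.26) falls between wild type replicates 1 and 3.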

How the data were processed

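RNA of 7 myoblast samples was hybridised as biotin-labelled cRNA to Affymetrix arrays, per the labels' protocols. The authors deposited linear probe set intensities, whose median was 150 on every array. The sources used here do not give the program or how probes were summarised. Values were taken as log2(intensity + 1) with no further normalization. Of 45101 probe sets, 34945 had 1 gene in the platform table, 932 several, 9160 none and 64 were controls, and 34741 identifiers were found in RefSeq (GRCm38.p6). Each of 18193 genes was represented by its brightest probe set. Groups from the sample titles were compared with limma 3.58.1 in R 4.3.3 (lmFit, eBayes, Benjamini-Hochberg over all genes, threshold 0.05), and ratios by exact permutation. The array number limits precision, and p-values measure the spread between these samples, which the labels call biological replicates.

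The members and gene lists were chosen with earlier results of these data known. The rule for named genes took all 10 myosin genes, Hmga2, control probe sets, up to 4 genes with the smallest p per list, Myod1, Myog and the 8 genes most like the myosin mean. Other genes, among them Pax7, Msc, Gata4, Nppb, Col3a1, Lum, Dpt, Nppa, Myl7, Nkx2-5, Myh9 and Hsp90aa1, were named after their values were seen. The alternatives tried were each sample left out, the replicate block, sex added to the model, the female samples alone, quantile normalization, a filter on dim genes, mean probe sets, a pseudocount of 16, another prior, array weights and a threshold of 0.1. The scripts were tested on simulated data.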

Additional observations from a re-analysis of the deposited data

Results flagged for a closer look

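Of 18 values checked among the 4 Hmga2 KO samples, 1 had a sample far from the others: the log2 ratio of Myh8 to Myh3 was -3.78 in Hmga2 KO replicate 3, against -3.54 to -3.50 in the other 3. Chance flags about 1 in 20 such groups.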

How the results depend on the processing

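No myosin gene passed limma under any alternative except the replicate block, where 1 of 10 genes and 1 of 14 probe sets, both Myh8, passed (difference -1.40, adjusted p = 0.0151). That fit called 99 genes and 105 probe sets, against 5 and 7 without the block. No wild type sample shares the number of Hmga2 KO replicate 4, so the differences of that fit rest on replicates 1 to 3. Leaving out Hmga2 KO replicate 4 with no block also gave -1.40 for Myh8 (adjusted p = 0.413, limma). Same-numbered samples correlated in their deviations from the group means at 0.36, 0.43 and -0.16. Samples with different numbers correlated at -0.48 to 0.20. These few values are mixed, so whether the numbers pair the samples cannot be settled from them. The numbers are those of the titles, and for Hmga2 KO replicate 2 other labels give numbers that differ from each other. Over all alternatives, the adjusted p of Myh8 ran from 0.0151 to 0.602 and its difference from -1.55 to -0.96. Of 157 recomputed myosin differences 4 changed sign: in females alone and with sex as a covariate, Myh1 was 0.0177 and Myh4 0.0561. The ratio of Myl2 to Mylpf was -0.255 in females alone, and -0.147 to 0.247 when 1 sample was left out. That of Myl4 to Myl1 was -0.0997 to 0.0559 when 1 sample was left out. With an adjusted p under 0.1, 9 genes, 13 probe sets and, between the sexes, 11 genes passed. Leaving out 1 sample gave 2 to 17 genes and 4 to 22 probe sets. Leaving out the dimmest 40% of genes gave 3 genes between the sexes, and 1 myosin gene with groups apart, since Myl2 was no longer tested. Leaving out 1 sample gave 2 to 9 myosin genes with groups apart. The median of the 10 genes lay between -0.66 and -0.20. Dim Myh2, Myh4 and Myl2 lie near background, which can limit their folds.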
